A study of Mus musculus with 13 samples.

Results

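The transcripts described here are those of 56 genes of the DNA replication machinery, taken by symbol from a table of 35967 gene symbols. The list follows what their proteins do, from the complexes that mark and license origins to the enzymes that supply nucleotides. It was drawn up with earlier results of these data known. All 56 were in the table, and all 56 were among the 14322 genes with a TPM (a transcript level corrected for length and scaled to a fixed total per library) of at least 1 in at least 4 libraries, which were tested. *Cdc6* was the 1 member that reached this level only in the day 5 MN libraries.

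RNA came from glomeruli, the capillary filters of the kidney, of wildtype Balb/c mice. The mice received 2 mg of rabbit IgG into the peritoneal cavity, either anti-THSD7A IgG, which binds a protein of the podocyte foot process and induces experimental membranous nephropathy (MN), or preimmune control IgG. Glomeruli were collected at day 1 (MN, n = 4) or day 5 (MN, n = 4), and control mice of both days formed 1 group (n = 5), without the day of each control mouse. For the MN model the methods name only males and an age of 14 to 15 weeks, which they state for littermates of the knockout lines, and each library came from 1 mouse. Whole glomeruli were sequenced in bulk, so a larger number of cells that copy their DNA and more RNA per such cell cannot be told apart.

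The defining transcripts of the labelled tissue were present: 8 podocyte markers summed to 6632 to 8998 TPM in control and 7339 to 7695 TPM in day 5 libraries, and 0 of the 8 passed the day 5 test. Tubular transcripts were also present, with 9 proximal tubule markers at 2341 to 8491 TPM in control, 4116 to 7423 TPM in day 1 and 3018 to 3663 TPM in day 5 libraries. The read depth behind these TPM is unknown, and 46.5% to 49.5% of symbols had a value of 0 in each library.

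Chromosomes are copied in 2 stages that the cell keeps apart. In G1 phase the origin recognition complex, with Cdc6 and Cdt1, loads the ring-shaped MCM2-7 helicase onto DNA, which is called licensing. In S phase Cdc45, the GINS complex and Mcm10 switch the helicase on, DNA polymerase alpha-primase lays down primers, the clamp Pcna holds polymerases delta and epsilon on the template, and new chromatin is assembled behind the fork. Most cells of a healthy adult glomerulus are not dividing, and mature podocytes in particular are known for leaving the cell cycle.

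At day 5, 23 of the 56 genes were higher in MN than in control glomeruli and 0 were lower (1 of them, *Orc3*, at an unadjusted p under 0.05; limma, adjusted p under 0.05 with a log2 fold change past 0.5 in size). Over all genes tested, 2.42% passed the same test in the higher direction. The median log2 fold change of the 56 members was 0.50, and 53 of them had a positive value. At day 1, 0 of 56 passed, against 0.0559% of all genes tested in the higher direction, with a median of 0.03. Of the 56, 1 had an unadjusted p under 0.05 at day 1, *Prim1*, with a log2 fold change of 0.28, against 12.6% of all genes tested.

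The 23 were spread unevenly over the steps of replication. All 4 licensing factors and regulators, 5 of 6 MCM2-7 subunits, 3 of 4 subunits of polymerase alpha-primase, both enzymes of Okazaki fragment maturation and 3 of 5 enzymes of nucleotide supply were called, together with 2 of 6 helicase activators, 2 of 4 chromatin proteins and 2 of 4 fork proteins. By contrast, 0 of 6 subunits of the origin recognition complex, 0 of 6 clamp and clamp loader genes, 0 of 5 subunits of polymerases delta and epsilon, 0 of 3 subunits of the single-strand binding protein RPA and not the helicase paralog *Mcm8* were called. At an unadjusted p under 0.05 these groups held 1, 3, 2 and 1 genes, and *Mcm8* as well, against 20.1% of all genes tested. The differences between these groups of genes were not tested.

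**Figure D1:**
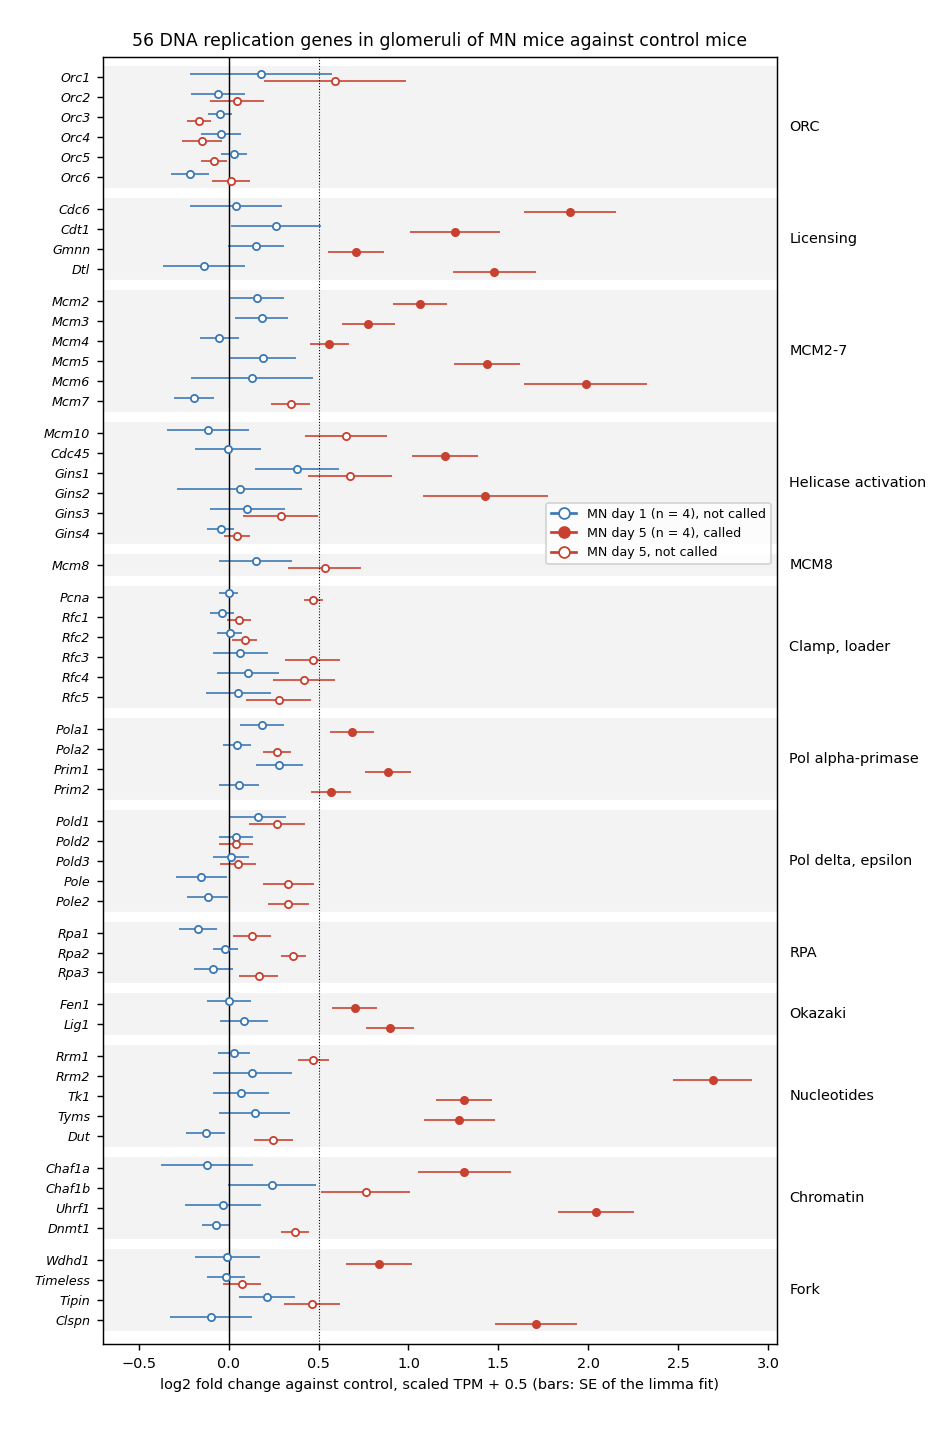
Log2 fold changes against control mice of the 56 genes at day 1 (blue) and day 5 (red), grouped by function, as points with the SE of the limma fit as bars; filled points passed the test and the dotted line marks 0.5. All day 1 points are open, and the 23 filled day 5 points lie between 0.56 for *Mcm4* and 2.69 for *Rrm2*.

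The promoters of 4 of these genes are shown before their values: the 3 members with the largest day 5 log2 fold changes among those called without overlap of libraries (*Rrm2*, *Uhrf1* and *Mcm6*), and *Mcm7*, the helicase subunit with the smallest. E2F transcription factors and the CCAAT-binding factor NF-Y are known regulators of S phase genes, and the windows were searched for their letters. Capitals mark matches on either strand to an E2F 8-mer (TTTCCCGC, TTTCGCGC, TTTGCCGC or TTTGGCGC), to CCAAT, or to the cell cycle homology element TTTGAA. Each window holds 250 bases before and 50 bases from the transcription start, in the direction of the gene, from the RefSeq promoter table of GRCm38.p6, and matched 1 place in GRCm39 exactly. The windows lie at chr12:24758003-24758302 (*Rrm2*, + strand), chr17:56610087-56610386 (*Uhrf1*, + strand), chr1:128287393-128287692 (*Mcm6*, - strand) and chr5:138170096-138170395 (*Mcm7*, - strand) of GRCm39.
Rrm2: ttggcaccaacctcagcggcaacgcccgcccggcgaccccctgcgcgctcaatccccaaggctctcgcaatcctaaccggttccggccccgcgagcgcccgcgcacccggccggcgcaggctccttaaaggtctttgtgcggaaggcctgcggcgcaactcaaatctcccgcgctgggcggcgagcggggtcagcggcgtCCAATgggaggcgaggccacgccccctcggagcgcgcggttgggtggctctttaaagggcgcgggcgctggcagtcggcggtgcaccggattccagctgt
Uhrf1: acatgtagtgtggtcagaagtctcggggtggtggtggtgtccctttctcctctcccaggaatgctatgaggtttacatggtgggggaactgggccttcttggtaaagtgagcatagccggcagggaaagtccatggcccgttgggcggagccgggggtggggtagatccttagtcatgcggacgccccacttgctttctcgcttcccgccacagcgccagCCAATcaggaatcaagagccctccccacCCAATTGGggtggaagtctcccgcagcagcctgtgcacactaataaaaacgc
Mcm6: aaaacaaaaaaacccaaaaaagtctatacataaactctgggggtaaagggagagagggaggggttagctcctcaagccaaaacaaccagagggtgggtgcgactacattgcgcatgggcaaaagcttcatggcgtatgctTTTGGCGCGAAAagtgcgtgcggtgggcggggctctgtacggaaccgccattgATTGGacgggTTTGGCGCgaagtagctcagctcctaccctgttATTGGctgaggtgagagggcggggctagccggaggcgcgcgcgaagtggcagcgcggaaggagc
Mcm7: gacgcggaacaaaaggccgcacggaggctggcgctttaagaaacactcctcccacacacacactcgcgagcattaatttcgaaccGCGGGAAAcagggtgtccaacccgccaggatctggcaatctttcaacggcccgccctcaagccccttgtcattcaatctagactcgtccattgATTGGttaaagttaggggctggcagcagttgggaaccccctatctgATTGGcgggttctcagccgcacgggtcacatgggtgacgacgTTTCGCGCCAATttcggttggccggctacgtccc

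The *Mcm6* window held 3 E2F matches, 2 of which overlap on opposite strands, and 2 CCAAT matches. *Mcm7* has 2 windows, and the upstream one printed here held 2 E2F matches and 3 CCAAT matches. In it, 1 E2F match overlaps 1 CCAAT match. The *Rrm2* window held 1 CCAAT match and no E2F match. *Uhrf1* has 2 windows in the table: the upstream one printed here held 3 CCAAT matches, 2 of them overlapping on opposite strands, and the E2F match of this gene lies in the other window.

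A window was listed for 47 of the 56 members. An E2F 8-mer was present in 20 of the 47 (42.6%), against 704 of all 27025 genes with a window (2.6%) and 490 of the 10683 genes tested with a window (4.59%). Of the members called at day 5, 10 of 19 with a window held a match (52.6%), and of those not called, 10 of 28 did (35.7%). It was found in 3 of 3 windows of licensing factors, 4 of 5 of MCM2-7 subunits and 3 of 4 of polymerases delta and epsilon, and in 0 of 5 of nucleotide supply and 0 of 3 of RPA. CCAAT was present in 61.7% of the members against 41.1% of all genes with a window, and TTTGAA in 12.8% against 20.2%. Over the genes tested with a window these shares were 42.8% and 14.6%. These matches describe letters in a window and not binding.

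Origin recognition came first in the order of events and showed no called difference. *Orc1*, the subunit known to be made and removed with the cell cycle, had TPM of 2.24, 0.984, 2.53, 0.776 and 2.05 in control replicates 1 to 5, 3.09, 0.882, 1.43 and 2.49 in day 1 replicates 1 to 4, and 1.77, 1.80, 6.47 and 2.05 in day 5 replicates 1 to 4. The day 5 value of replicate 3 lay above all others and the other 3 lay within the control range (log2 fold change 0.59, SE 0.39, adjusted p = 0.454). *Orc3* had the lowest log2 fold change of the 56 members, -0.16 (SE 0.07, adjusted p = 0.184), with TPM of 47.5, 49.8, 45.0, 45.4 and 46.5 in control and 36.0, 38.3, 48.9 and 40.9 in day 5 libraries. *Orc2*, *Orc4*, *Orc5* and *Orc6* had log2 fold changes between -0.15 and 0.05, at control means of 16.1 TPM or more. Day 5 libraries of all 6 genes overlapped with control.

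All 4 genes of licensing and its control were called. *Cdc6*, the ATPase that joins the origin complex to load the helicase, stayed under 1 TPM outside day 5. Its TPM were 0.549, 0.121, 0.607, 0.377 and 0.361 in control, 0.630, 0.284, 0.171 and 0.594 in day 1, and 2.76, 2.02, 2.84 and 3.64 in day 5 libraries. Every day 5 library lay above every other library (log2 fold change 1.90, SE 0.26, adjusted p = 0.000629), and the call was also made with no filter on low TPM. The size depends on the pseudocount at such levels, with 1.45 at 1 and 2.64 at 0.1. For *Cdt1*, the second loading factor, TPM ranged from 1.88 to 4.69 in control and from 5.77 to 10.6 in day 5 libraries (log2 fold change 1.26, SE 0.25, adjusted p = 0.00825). Both were also set against day 1, where *Cdc6* passed the test (log2 difference 1.86, adjusted p = 0.00147) and *Cdt1* did not (0.99, adjusted p = 0.07).

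Genes that restrain licensing were called beside those that carry it out. *Gmnn* encodes geminin, the inhibitor that holds Cdt1 after S phase begins. Its TPM were 12.9, 17.2, 13.8, 13 and 9.34 in control, 17.8, 13.7, 12.6 and 12.6 in day 1, and 20.4, 16.5, 23.1 and 25.3 in day 5 libraries, so that day 5 replicate 2 lay below control replicate 2 (log2 fold change 0.71, SE 0.16, adjusted p = 0.0152). This call turned on 1 library, since the adjusted p was 0.0517 without day 5 replicate 4. After scaling, day 5 replicate 2 of *Gmnn* lay just above control replicate 2 (log2 differences from the control mean of 0.39 and 0.36). *Dtl*, the substrate receptor of the ligase that destroys Cdt1 at the clamp, ranged from 0.716 to 1.18 TPM in control, 0.53 to 0.94 TPM in day 1 and 2.07 to 4.77 TPM in day 5 libraries (log2 fold change 1.48, SE 0.23, adjusted p = 0.00154).

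The 6 subunits of the MCM2-7 helicase, which form 1 ring with each subunit present in equal number, differed widely in transcript level in control mice and less so at day 5. *Mcm6* was the lowest of the 6 in control and had the largest change. Its TPM were 3.70, 7.67, 2.74, 5.14 and 2.61 in control, 7.84, 2.97, 2.45 and 5.93 in day 1, and 13.2, 13, 22.4 and 22.3 in day 5 libraries (log2 fold change 1.99, SE 0.34, adjusted p = 0.00315). All day 5 values lay above all others, and the control values themselves spread nearly as far as the day 1 values. *Mcm5* had TPM of 10.2, 10.7, 9.94, 10.0 and 6.54 in control, 13.8, 7.78, 9.79 and 11.1 in day 1, and 22.0, 19.0, 33.7 and 30.2 in day 5 libraries (log2 fold change 1.44, SE 0.18, adjusted p = 0.000391). *Mcm2* had 10.3, 10.9, 9.41, 11.8 and 11.3 TPM in control, 15.4, 10.2, 9.75 and 12.1 TPM in day 1, and 18.7, 18.1, 26.0 and 28.6 TPM in day 5 libraries (log2 fold change 1.06, SE 0.15, adjusted p = 0.000821). For both, the day 5 libraries were separate from the control and the day 1 libraries.

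The more abundant subunits had smaller fold changes. *Mcm3* had 23.2, 33.0, 18.5, 26.7 and 23.3 TPM in control, 32.3, 24.6, 24.6 and 27.1 TPM in day 1, and 39.2, 32.6, 46.0 and 49.5 TPM in day 5 libraries, with day 5 replicate 2 just below control replicate 2 (log2 fold change 0.78, SE 0.15, adjusted p = 0.00684). After scaling, that day 5 library lay just above that control library (log2 differences from the control mean of 0.47 and 0.39). *Mcm4* was the called member with the smallest log2 fold change, 0.56 (SE 0.11, adjusted p = 0.00721), at 18.4, 19.3, 18.4, 19.9 and 15.2 TPM in control, 20.1, 14.1, 17.3 and 16.7 TPM in day 1, and 22.6, 23.2, 29.2 and 31.3 TPM in day 5 libraries. Its day 5 libraries lay above all others, and without day 5 replicate 4 the log2 fold change was 0.49, under the threshold. *Mcm7*, the most abundant subunit in control, had 31.9, 33.5, 35.6, 31.5 and 28.8 TPM in control, 34.6, 23.5, 28.9 and 23.4 TPM in day 1, and 35.8, 35.3, 47.1 and 43.1 TPM in day 5 libraries.

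*Mcm7* was not called against control (log2 fold change 0.34, SE 0.11, adjusted p = 0.0882), and day 5 replicate 2 lay just below the highest control library. After scaling, it lay just above that library (log2 differences from the control mean of 0.19 and 0.14). The authors, by their test of counts, report all of *Mcm2-7*, thus also *Mcm7*, as higher in RNA, and as higher in protein too. Against day 1 it was called (log2 difference 0.54, SE 0.12, adjusted p = 0.0277), a call lost on leaving out any 1 of 5 libraries. The *Mcm7* locus (chr5:138162844-138170684, GRCm39) overlaps exons of *Ap4m1* and *Cops6* on the opposite strand and hosts the microRNA genes *Mir25* and *Mir93*. How reads of overlapping genes were shared is not given in the sources used here.

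**Figure D2:**
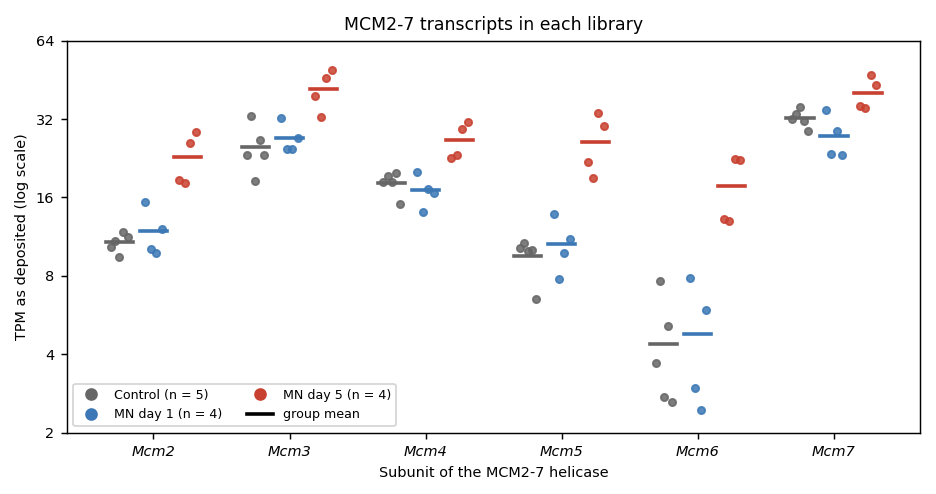
Deposited TPM of the 6 MCM2-7 subunits in each library on a log scale, with points for libraries and bars for group means of control (n = 5), day 1 MN (n = 4) and day 5 MN mice (n = 4). The means run from 4.37 (*Mcm6*) to 32.3 (*Mcm7*) in control mice and from 17.7 (*Mcm6*) to 41.8 (*Mcm3*) at day 5.

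Within each library, the highest of the 6 subunits exceeded the lowest 4.37 to 13 times in control, 4.41 to 11.8 times in day 1 and 2.10 to 2.97 times in day 5 libraries. The day 5 range lay below both others. In control and day 1 mice the order of the means was *Mcm7*, *Mcm3*, *Mcm4*, *Mcm2*, *Mcm5* and *Mcm6*, and at day 5 it was *Mcm3*, *Mcm7*, *Mcm4*, *Mcm5*, *Mcm2* and *Mcm6*. At day 5 the ranges of *Mcm3* and *Mcm7* overlapped, as did those of *Mcm4*, *Mcm5* and *Mcm2*. The range of *Mcm6* overlapped with those of *Mcm2* and *Mcm5* but not with that of *Mcm4*, and within each of the 4 day 5 libraries *Mcm6* was the lowest of the 6.

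Ratios were also taken for 8 other pairs of partners, chosen after their values were seen and given with no test. In 3 of the 8 the day 5 libraries lay below all control libraries, and in 5 they overlapped. *Rrm1*, the large subunit of ribonucleotide reductase, exceeded its small partner *Rrm2* 13.5 to 27.1 times in control, 12.0 to 29.4 times in day 1 and 2.34 to 3.68 times in day 5 libraries. *Dnmt1*, the maintenance DNA methyltransferase, exceeded *Uhrf1*, which guides it to newly copied DNA, 8.51 to 22.1 times in control and 3.70 to 4.58 times in day 5 libraries. *Gins4* exceeded *Gins2* 8.48 to 28.5 times in control and 3.17 to 5.15 times at day 5. For *Chaf1b* over *Chaf1a* (2.31 to 4.25 in control, 1.57 to 2.54 at day 5) and *Orc2* over *Orc1* (7.98 to 30.2 in control, 3.56 to 12.4 at day 5) the libraries overlapped. They also overlapped for *Gmnn* over *Cdt1* (2.94 to 5.81 in control, 2.34 to 3.53 at day 5), *Pola2* over *Pola1* (15.3 to 28.8 and 12.3 to 16.2) and *Prim2* over *Prim1* (1.05 to 1.75 and 0.96 to 1.19).

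**Figure D3:**
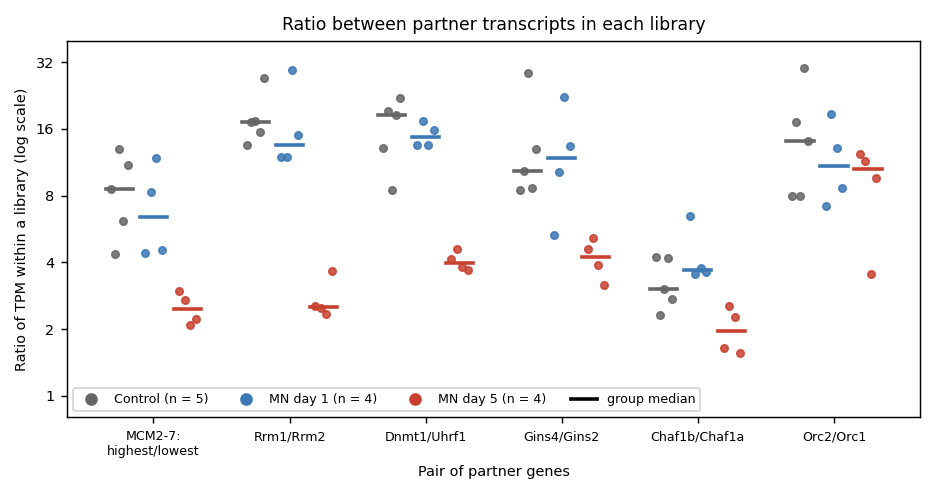
Ratio of TPM between partner genes within each library, on a log scale, for 6 pairs or complexes; points are libraries and bars are group medians of control (n = 5), day 1 MN (n = 4) and day 5 MN mice (n = 4). Day 5 ratios lie below all control ratios for MCM2-7 (2.10 to 2.97), *Rrm1* over *Rrm2*, *Dnmt1* over *Uhrf1* and *Gins4* over *Gins2*, and overlap with them for the other 2.

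Among the factors that activate the helicase, *Cdc45* and *Gins2* were called. *Cdc45*, which rides with the active helicase, ranged from 1.95 to 2.96 TPM in control, 1.38 to 2.79 TPM in day 1 and 5.22 to 7.79 TPM in day 5 libraries (log2 fold change 1.20, SE 0.18, adjusted p = 0.00148). *Gins2* had TPM of 3.89, 3.19, 1.07, 4.08 and 2.38 in control, 5.77, 2.89, 1.54 and 2.06 in day 1, and 7.42, 6.35, 7.80 and 10.7 in day 5 libraries. All its day 5 libraries lay above all others (log2 fold change 1.43, SE 0.35), yet its adjusted p of 0.0271 was the largest of the called members, and it rose to at most 0.0769 when 1 library was left out, with the call lost in 5 of 13 such fits. *Gins4*, of the same 4-part complex, had 32.9, 32.8, 30.6, 35.5 and 30.7 TPM in control and 34.1, 32.7, 30.4 and 33.8 TPM in day 5 libraries (log2 fold change 0.05, SE 0.07, adjusted p = 0.794). *Gins1* (0.67, adjusted p = 0.118), *Gins3* (0.29, adjusted p = 0.492) and *Mcm10* (0.65, adjusted p = 0.122) did not pass. *Mcm8*, a paralog linked to recombination repair, had 1.59, 1.54, 1.24, 2.25 and 1.42 TPM in control and 1.70, 2.22, 3.44 and 2.78 TPM in day 5 libraries (log2 fold change 0.53, SE 0.20, adjusted p = 0.153).

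Primer synthesis was called in 3 of 4 genes. *Prim1*, the catalytic primase subunit, had 8.25, 6.96, 6.24, 5.33 and 6.50 TPM in control, 7.84, 6.82, 7.80 and 9.19 TPM in day 1, and 12.2, 10.1, 14.7 and 12.7 TPM in day 5 libraries (log2 fold change 0.89, SE 0.13, adjusted p = 0.00105). *Pola1*, the catalytic polymerase subunit, ranged from 2.97 to 4.14 TPM in control and 4.90 to 6.78 TPM at day 5 (log2 fold change 0.69, adjusted p = 0.00408). *Prim2*, the large primase subunit, had 9.57, 11.4, 8.57, 9.33 and 6.81 TPM in control, 8.27, 9.59, 9.83 and 8.81 TPM in day 1, and 13.3, 12.0, 14.2 and 13.7 TPM in day 5 libraries (log2 fold change 0.57, SE 0.11, adjusted p = 0.00783). In all 3 the day 5 and control libraries were separate, although the log2 fold change of *Prim2* was 0.49 without control replicate 5. The regulatory subunit *Pola2* was far more abundant, with 67.9, 85.3, 70.1, 63.2 and 60.5 TPM in control and 79.6, 77.9, 83.5 and 83.2 TPM at day 5, and was not called (log2 fold change 0.27, SE 0.08, adjusted p = 0.064).

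*Pcna*, the sliding clamp that tethers the replicative polymerases, had the most precise difference of the 56 and fell short only of the fold threshold. Its TPM were 109, 97.7, 93.4, 104.4 and 94.9 in control, 103, 91.1, 95.4 and 97.4 in day 1, and 131, 129, 141 and 140 in day 5 libraries. Each day 5 library lay above each of the others (log2 fold change 0.47, SE 0.05, adjusted p = 0.000165). Without control replicate 1 the log2 fold change was 0.50 and the gene was called. The clamp loader genes *Rfc1* to *Rfc5* had log2 fold changes of 0.06 to 0.47. Of these, *Rfc3* had 11.2, 13.2, 9.91, 10.8 and 10.0 TPM in control and 10.4, 15.3, 17.4 and 18.0 TPM at day 5 (log2 fold change 0.47, SE 0.15, adjusted p = 0.097), and it was called without day 5 replicate 1 (log2 fold change 0.62, adjusted p = 0.0258). *Rfc1*, the large subunit, had 32.0, 32.6, 27.3, 30.6 and 27.1 TPM in control and 27.9, 29.1, 33.2 and 31.5 TPM at day 5.

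The polymerases that copy the bulk of the genome were not called. *Pole*, the catalytic subunit of the leading-strand polymerase, had 11, 11.6, 11.7, 10.1 and 8.47 TPM in control and 11.8, 11.2, 16.3 and 13.5 TPM at day 5, with overlap (log2 fold change 0.33, SE 0.14, adjusted p = 0.207). Its partner *Pole2* had 6.65 to 8.96 TPM in control and 7.32 to 10.9 TPM at day 5 (0.33, SE 0.11, adjusted p = 0.111). *Pold1*, *Pold2* and *Pold3* of the lagging-strand polymerase had log2 fold changes of 0.27, 0.04 and 0.05. *Pold2*, the smallest of these, had 31.0, 23.2, 28.5, 22.9 and 22.3 TPM in control and 23.4, 24.1, 27.2 and 27.4 TPM at day 5. Of the RPA subunits that coat unwound DNA, *Rpa2* passed the adjusted p but not the fold threshold. It had 13.6, 14.2, 15.0, 14.2 and 13.7 TPM in control, 13.3, 12.9, 13.3 and 14.4 TPM in day 1, and 15.7, 16.8, 20.1 and 19.1 TPM in day 5 libraries, with no overlap (log2 fold change 0.36, SE 0.07, adjusted p = 0.00738). *Rpa1*, the large subunit, had 87.8, 95.9, 85.1, 81.9 and 83.1 TPM in control and 112, 79.8, 94.4 and 87.1 TPM at day 5. Its log2 fold change was 0.13 and that of *Rpa3* was 0.17, both with overlap.

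Both genes that join Okazaki fragments, the short pieces of the lagging strand, were called. *Lig1*, DNA ligase 1, had 9.44, 12.2, 8.71, 11.2 and 8.32 TPM in control, 12.6, 8.08, 10.3 and 10.0 TPM in day 1, and 17.1, 15.7, 21.8 and 19.5 TPM in day 5 libraries (log2 fold change 0.90, SE 0.13, adjusted p = 0.00119). *Fen1*, the flap endonuclease, had 8.81, 7.85, 8.40, 9.76 and 7.46 TPM in control, 10.4, 7.51, 6.54 and 8.67 TPM in day 1, and 13.5, 12.1, 14.3 and 14.9 TPM in day 5 libraries (log2 fold change 0.70, SE 0.12, adjusted p = 0.004). In both, every day 5 library lay above every control and every day 1 library.

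Nucleotide supply held the largest difference of all 56 genes. *Rrm2* encodes the small subunit of ribonucleotide reductase, the enzyme that turns ribonucleotides into the building blocks of DNA, and is the subunit known to be made in S phase. Its TPM were 1.38, 1.15, 1.04, 1.43 and 0.703 in control, 1.67, 1.35, 0.709 and 1.34 in day 1, and 8.99, 10.7, 13.3 and 7.02 in day 5 libraries, with the lowest day 5 library above the highest of the others (log2 fold change 2.69, SE 0.22, adjusted p = 2.06e-05). Its partner *Rrm1* had 18.6, 19.8, 18.1, 22.0 and 19.0 TPM in control, 20.1, 16.2, 20.8 and 20.1 TPM in day 1, and 23.0, 26.6, 31.2 and 25.8 TPM in day 5 libraries. These did not overlap either, but the log2 fold change of 0.47 (SE 0.09, adjusted p = 0.00561) lay just under the threshold, the nearest value outside it among members that passed the adjusted p. It was called without control replicate 4 or without day 5 replicate 1, with a log2 fold change of at most 0.52.

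*Tk1*, the S phase thymidine kinase, had 7.28 to 14.6 TPM in control and 21.6 to 29.1 TPM at day 5 (log2 fold change 1.31, SE 0.15, adjusted p = 0.0002). *Tyms*, thymidylate synthase, had 6.84 to 11.8 TPM in control and 16.8 to 27.3 TPM at day 5 (log2 fold change 1.28, SE 0.20, adjusted p = 0.00148). In both, the lowest day 5 library lay above the highest control library. *Dut*, which removes dUTP, had 21.6, 32.7, 25.1, 23.5 and 23.9 TPM in control and 28.5, 29.5, 25.8 and 33.4 TPM at day 5, with overlap (log2 fold change 0.25, SE 0.11, adjusted p = 0.222).

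Of the proteins that rebuild chromatin behind the fork, *Uhrf1* had the second largest difference of the 56. Its TPM were 2.22, 1.90, 3.67, 1.74 and 1.30 in control, 2.05, 1.69, 2.24 and 1.79 in day 1, and 8.47, 7.78, 11.6 and 12.2 in day 5 libraries, with no overlap (log2 fold change 2.04, SE 0.21, adjusted p = 7.95e-05). *Dnmt1* had 29.1, 36.6, 31.2, 32.3 and 28.8 TPM in control and 35.2, 35.6, 44.1 and 45.2 TPM at day 5, passed the adjusted p and stayed under the fold threshold (log2 fold change 0.37, SE 0.08, adjusted p = 0.0127). *Chaf1a*, the large subunit of the histone chaperone CAF-1, had 1.70, 4.85, 1.71, 1.96 and 1.54 TPM in control, 1.96, 1.94, 1.64 and 1.97 TPM in day 1, and 5.86, 4.26, 6.01 and 8.24 TPM in day 5 libraries. Control replicate 2 stood apart from the other 4 and above day 5 replicate 2, and the gene was called with it (log2 fold change 1.31, SE 0.26, adjusted p = 0.00781) and without it (log2 fold change 1.56, adjusted p = 0.000298).

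The other CAF-1 subunit, *Chaf1b*, was the member past the fold threshold with the smallest adjusted p that did not pass. It had 7.23, 11.2, 5.21, 8.22 and 4.23 TPM in control, 12.8, 6.85, 6.22 and 7.13 TPM in day 1, and 9.67, 10.8, 13.7 and 12.9 TPM in day 5 libraries. Control replicate 2 again lay within the day 5 range (log2 fold change 0.76, SE 0.25, adjusted p = 0.0923), and without that library the gene was called (log2 fold change 0.92, adjusted p = 0.0314).

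At the fork itself, *Clspn* and *Wdhd1* were called. *Clspn* encodes claspin, which carries the checkpoint signal, and had 1.52, 1.48, 0.697, 0.678 and 0.862 TPM in control, 1.09, 1.01, 0.546 and 0.930 TPM in day 1, and 3.31, 4.12, 5.85 and 4.37 TPM in day 5 libraries (log2 fold change 1.71, SE 0.23, adjusted p = 0.000591). *Wdhd1*, which links polymerase alpha to the helicase, had 2.02, 1.33, 1.44, 1.69 and 1.41 TPM in control, 1.63, 1.56, 1.20 and 1.66 TPM in day 1, and 2.58, 2.41, 3.42 and 4.37 TPM in day 5 libraries (log2 fold change 0.84, SE 0.18, adjusted p = 0.0142). Both were free of overlap at day 5, and the *Wdhd1* call was lost without day 5 replicate 4 (adjusted p = 0.0504). *Timeless*, of the fork protection complex, had 42.1, 40.9, 34.9, 44.6 and 37.2 TPM in control and 31.5, 38.6, 46.6 and 49.2 TPM at day 5 (log2 fold change 0.07, SE 0.11, adjusted p = 0.776). Its partner *Tipin* had a log2 fold change of 0.46 (adjusted p = 0.108).

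Across the 56 genes, members with low levels in control mice carried most of the day 5 calls. Of 16 members with a control mean under 5 TPM, 12 were called, against 5.88% of all genes tested at that level. *Cdc6*, among these 12, passed the filter only through its day 5 libraries. Between 5 and 20 TPM, 10 of 21 were called against 2.45%, and at 20 TPM or more 1 of 19, *Mcm3*, against 0.998%. Medians of the log2 fold changes were 1.28, 0.56 and 0.09 for the members of these bins, and between -0.03 and 0.02 for all genes tested in them. Over the 56 members, the rank correlation between control level and day 5 log2 fold change was -0.75 (Spearman, across genes of the same libraries, which are not independent). The control libraries enter both measures.

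**Figure D4:**
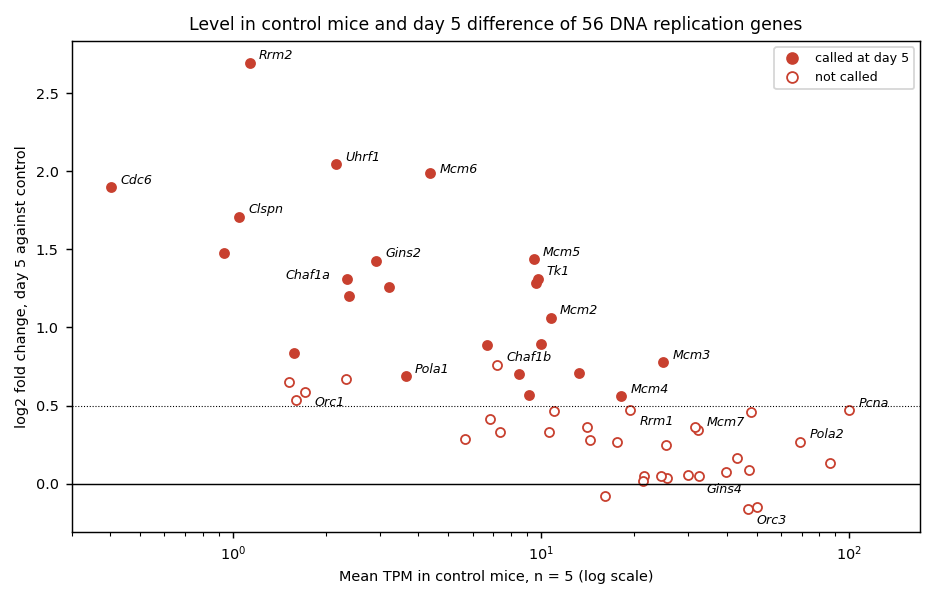
Mean control TPM (n = 5, log axis) against the day 5 log2 fold change of the 56 genes; filled points were called and the dotted line marks 0.5. Members under 5 TPM have a median log2 fold change of 1.28 and those at 20 TPM or more of 0.09.

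Library by library, all 4 day 5 libraries of 23 members lay above all control libraries, against 5.07% of all genes tested. These were 20 of the 23 called members (all but *Gmnn*, *Mcm3* and *Chaf1a*) and *Pcna*, *Rpa2* and *Rrm1*. Both the count and the share used TPM before scaling. After scaling, the day 5 libraries of *Gmnn*, *Mcm3*, *Mcm7*, *Pole*, *Dnmt1* and *Tipin* also lay above all control libraries. The share over all genes was not taken on that scale. At day 1 the libraries of 0 members lay above control, against 0.908% of all genes. The median log2 difference of the 56 members from the control mean was between -0.08 and 0.07 in control, -0.06 and 0.10 in day 1, and 0.43 and 0.64 in day 5 libraries. Summed over the 56 members, TPM ranged from 978 to 1147 in control, 972 to 1121 in day 1 and 1245 to 1490 in day 5 libraries.

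The day 5 mice were not alike, and neither were those of the other groups. Replicates 3 and 4 both lay above replicates 1 and 2 for 41 of the 56 members (73.2%) and for 20 of the 23 called ones (87%), against 30.2% of all genes tested. Their median differences were 0.64 and 0.63, and those of replicates 1 and 2 were 0.44 and 0.43. Every one of the 4 was above the day 1 and control ranges. The 9 proximal tubule markers summed to 3018 to 3663 TPM at day 5. A score of 14 tubular markers (mean of their standardized levels) was taken per library. It was -0.53 and -0.63 in replicates 1 and 2, and -0.21 and -0.29 in replicates 3 and 4. Scaling factors were 0.955 and 0.974 in replicates 1 and 2, and 1.04 and 1.01 in replicates 3 and 4. The counts of 41 and 20, and the share over all genes, used TPM before this scaling. After it, *Cdc6*, *Gins2*, *Prim1*, *Prim2*, *Fen1* and *Chaf1a* of the called members no longer followed this order. The split was chosen after the values were seen, and genes of the same libraries are not independent. The part of any sample property in this split was not tested. In the other groups, day 1 replicate 1 was the highest library of its group for 29 of the 56 members. Control replicate 5 was the lowest of its group for 24, and day 5 replicate 3 was the highest of its group for 27. These counts also used TPM before scaling, and no share over all genes was taken for them.

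**Figure D5:**
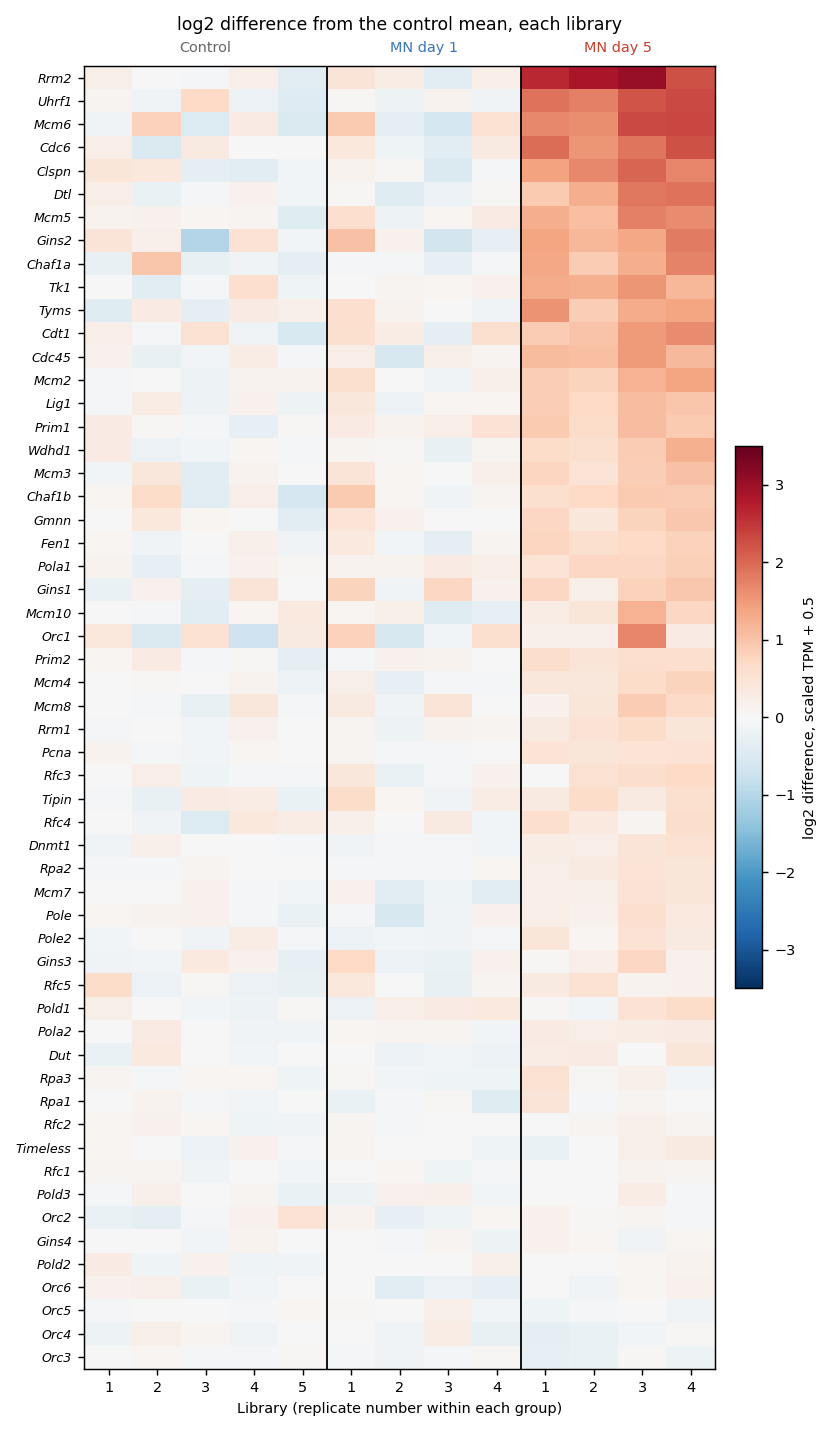
Log2 difference from the control mean (scaled TPM + 0.5) of the 56 genes in each of the 13 libraries, ordered by the day 5 log2 fold change; red is higher and blue is lower. Day 5 libraries are red in the upper rows, most strongly in replicates 3 and 4 (medians of 0.64 and 0.63), and the lower rows hold *Pold2*, *Orc3* and *Orc4* with no such difference.

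Set directly against day 1, 19 members were higher at day 5 and 0 lower, against 1.41% of all genes tested in the higher direction, with a median log2 difference of 0.46. All day 5 libraries lay above all day 1 libraries for 31 members, against 6.12% of all genes. Of the 19, 18 were also called against control and the other was *Mcm7*, but both comparisons use the day 5 libraries. The largest were *Rrm2* (2.56, adjusted p = 6.38e-05), *Uhrf1* (2.08, adjusted p = 0.000138), *Cdc6* and *Mcm6* (1.86 each, adjusted p = 0.00147 and 0.0133). Tubular markers were higher in day 1 libraries, with 9 proximal tubule markers at 4116 to 7423 TPM in day 1 and 3018 to 3663 TPM in day 5 libraries and 5 markers of the loop and distal tubule at 493 to 896 and 345 to 477 TPM. With a score of the 14 markers as a covariate, 9 members were called between the days, against 0.817% of all genes tested in the higher direction, and the median log2 difference of the 56 was 0.46. The score itself was 0.27 to 1.30 in day 1 and -0.63 to -0.21 in day 5 libraries, without overlap. Score and day therefore cannot be told apart well in that fit. Between day 5 and control 23 were called with that covariate, against 2.55% of all genes tested in the higher direction.

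Over all genes tested, 2.42% were called higher at day 5. A wider list of 54 further genes of the replication process held 7 called at day 5, all higher, among 52 tested. They were *Dbf4* (log2 fold change 0.64), the activator of the kinase that fires origins, *Pclaf* (1.84), a clamp-binding protein, *Dscc1* (1.11), of an alternative clamp loader, *Top2a* (1.67), the topoisomerase that untangles copied chromosomes, *Dck* (0.86), deoxycytidine kinase, *Hells* (1.45), a chromatin remodeller, and *Esco2* (2.05), which acetylates cohesin in S phase. The median of the 52 was 0.16. *Top2a* had 13.4, 11.4, 10.2, 14.4 and 7.12 TPM in control, 7.25, 4.58, 7.63 and 8.97 TPM in day 1, and 31.5, 34.0, 47.4 and 30.0 TPM in day 5 libraries, with the day 5 libraries above all others (SE 0.20, adjusted p = 0.000263). Within the list, 0 of 3 accessory subunits of the polymerases, 0 of 4 primer removal genes and 1 of 11 tested genes of nucleotide metabolism were called. Beside the 2.42% of all genes tested, counts this small do not set these groups apart.

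Markers of the cell types that a glomerular preparation can hold were read beside these counts. Of the lists for podocytes (8 genes), mesangial cells (6), glomerular endothelial cells (7), proximal tubule (9) and loop and distal tubule (5), 0 genes were called at day 5 by limma, with 3, 0, 3, 1 and 1 at an unadjusted p under 0.05, against 20.1% of all genes tested. Of these, *Synpo* of the podocyte (log2 fold change -0.46, adjusted p = 0.00197) and *Emcn* of the endothelium (0.29, adjusted p = 0.0127) passed the adjusted p and not the fold threshold. Of 4 parietal epithelial markers 1 was called, *Cldn1*, a tight junction protein, at 4.55 to 6.24 TPM in control and 9.10 to 16.0 TPM at day 5 (log2 fold change 1.08, SE 0.19, adjusted p = 0.0036), and the list summed to 78.2 to 107 TPM in control and 99.3 to 125 TPM at day 5. All 4 had a positive log2 fold change, and 2 had an adjusted p under 0.05. For 2, every day 5 library lay above every control library, against 5.07% of all genes tested. Beside *Cldn1* this was *Akap12*, at 27.2 to 37.0 TPM in control and 40.1 to 41.2 TPM at day 5. The 9 macrophage and monocyte markers summed to 130 to 183 TPM in control and 152 to 194 TPM at day 5, with 0 of the 8 tested called and 1 at an unadjusted p under 0.05. Most of this sum came from *Ly6c2*, *Mrc1* and *Lyz2*, and 7 of the 8 tested had a positive log2 fold change. For 1 marker, *Adgre1*, every day 5 library lay above every control library. It was under the filter, at 0.032 to 0.210 TPM in control and 0.211 to 1.60 TPM at day 5. The 8 markers of T, B and NK cells were all under the filter and summed to 1.49 to 4.70 TPM in control and 2.19 to 3.98 TPM at day 5. The 4 neutrophil markers summed to 7.33 to 20.1 TPM in control and 5.60 to 25 TPM at day 5, with 0 of the 3 tested called or at an unadjusted p under 0.05 (limma), and the defining marker *Ly6g* had means of 0.05 and 0.03 TPM. Which cells carried the replication transcripts was not tested.

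Exons of 30 of the 56 genes overlap a gene on the opposite strand in the GENCODE annotation of GRCm39, and those of 4 (*Orc5*, *Mcm7*, *Pole2* and *Rpa1*) overlap one on the same strand. The strandedness of the libraries is not given in the sources used here, so reads of such pairs may be shared. Near-identical processed pseudogenes exist for *Gmnn*, *Mcm7*, *Pcna* and *Rpa3*. They were listed at no more than 0.192 TPM in any library for the first 3 and at up to 3.32 TPM for *Rpa3*.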

How the data were processed

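Per the labels and methods, total glomerular RNA was made into libraries with a Novogene kit, sequenced as paired ends and quantified by the authors with kallisto 0.46.2 (GRCm39, Ensembl 104). The submitters' notes also name FastQC 0.11.9 and Trimmomatic 0.39. The deposited values are TPM per gene symbol, and their read depth is unknown. The authors tested counts with DESeq2, which were not used here.

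Each library's TPM were scaled by a median-of-ratios factor (0.955 to 1.04, from 15772 genes above 0 in all 13 libraries) and taken as log2(TPM + 0.5). A fold change on this scale understates that of genes with low TPM. Statements that libraries overlapped or lay apart used TPM before scaling, unless given as after scaling. The 3 groups entered 1 limma 3.58.1 fit (R 4.3.3, eBayes with trend), with Benjamini-Hochberg adjustment over 14322 genes within each contrast. Calls needed an adjusted p under 0.05 with a log2 fold change past 0.5 in size. The median log2 fold change over all genes was about 0. The procedure was run on simulated data, with noise drawn independently for each gene and library. Such data hold no effects shared by the genes of a library, so calls under such effects were not tested.

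Members, lists, the promoter letters and tests were chosen with earlier results of these data known. Values per library were given for the largest and smallest day 5 difference of each functional group, all MCM2-7 subunits, *Pcna*, and members near a threshold or whose call turned on 1 library. Of the other replication genes the called ones were named, *Topbp1*, *Chtf18* and *Mms22l* among them for the comparison of the days, and *Top2a* was given in full after its values were seen. *Ticrr* was under the filter. Near-identical genes were found with BLAST+ 2.17.0 (90% identity or more along 50% or more of the transcript), and figures used Python 3.11.15 with matplotlib 3.10.9. Alternatives covered the pseudocount, scaling, filter, trend, groups in the fit, replicate block, a tubular marker covariate, the fold threshold and leaving out each library.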

Additional observations from a re-analysis of the deposited data

Results flagged for a closer look

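Within groups, 8 of 168 sets of member values (56 genes in 3 groups) held a library far from the others by Dixon's test, which chance gives in about 1 of 20 sets. These were *Orc1* (6.47 TPM in day 5 replicate 3, the others 1.77 to 2.05), *Pold3* (29.5 TPM in day 5 replicate 3, the others 22.7 to 23.4), *Tk1* (29.1 TPM in day 5 replicate 3, the others 21.6 to 22.6), *Mcm5* (6.54 TPM in control replicate 5, the others 9.94 to 10.7), *Chaf1a* (4.85 TPM in control replicate 2, the others 1.54 to 1.96), *Rrm1* (16.2 TPM in day 1 replicate 2, the others 20.1 to 20.8), *Chaf1a* (1.64 TPM in day 1 replicate 3, the others 1.94 to 1.97) and *Chaf1b* (12.8 TPM in day 1 replicate 1, the others 6.22 to 7.13). Of the 8, 3 lay in day 5 replicate 3.

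The 19 members called between the days differed by these log2 amounts in the direct limma test: *Rrm2* 2.56, *Uhrf1* 2.08, *Cdc6* 1.86, *Mcm6* 1.86, *Clspn* 1.80, *Dtl* 1.61, *Chaf1a* 1.43, *Mcm5* 1.25, *Tk1* 1.24, *Cdc45* 1.21, *Tyms* 1.14, *Mcm2* 0.90, *Wdhd1* 0.84, *Lig1* 0.81, *Fen1* 0.70, *Mcm4* 0.61, *Prim1* 0.60, *Mcm7* 0.54 and *Prim2* 0.51, all higher at day 5. The calls of *Prim2*, *Wdhd1*, *Prim1*, *Mcm7* and *Mcm6* were lost in at least 1 of the fits that left out 1 library.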

How the results depend on the processing

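The day 5 count of 23 called members lay between 18 and 27 over the alternatives: 23 at both other pseudocounts, without further scaling, after quantile normalization, without the trend, with the tubular score and with the 2 compared groups alone, 22 without the filter, 19 of the 50 members that reached 1 TPM in all libraries, and 27 by the adjusted p alone. Leaving out 1 library gave 18 to 24, with 18 without day 5 replicate 4, and 17 of the 23 calls were made in all 13 such fits. The calls lost were *Gmnn*, *Mcm4* and *Wdhd1* (without day 5 replicate 4), *Prim2* (without control replicate 5) and *Gins2* (5 libraries). *Cdc6* fell under the filter without any 1 day 5 library and was called in the 9 fits that tested it. At day 1, 0 members were called under every alternative. Between the days the count of 19 was 13 to 21 without 1 library and 9 with the score of tubular markers in the fit as a covariate. In that fit the median log2 difference of the members stayed at 0.46, the count over all genes went from 202 to 117 higher, and the cause was not tested. No called member changed direction under any of these alternatives.

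Over all genes tested, same-numbered libraries did not deviate together (correlations of -0.056 to 0.091). Whether part of the genes share an effect by number was not tested. With a replicate block, 18 members were called at day 5, 0 at day 1 and 18 between the days. Over all genes, calls in that fit went from 460 to 348 at day 5 and from 13 to 149 at day 1. Only the control group has a replicate 5, so the block takes that library out of the comparisons. Leaving out control replicate 5 alone, with no block, gave 403 calls at day 5 and 218 at day 1. The part of this library in the counts with the block was not tested. Depth is unknown for TPM, so the counting error of members under 1 TPM cannot be estimated, and the 5 control mice cannot be split by day.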

Other observations

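Beside the members, 3 genes of the wider replication list were called between the days but not at day 5 against control: *Topbp1*, an activator of origin firing (log2 difference 0.50, adjusted p = 0.0239), *Chtf18*, of an alternative clamp loader (1.11, adjusted p = 0.0201), and *Mms22l*, which acts at stalled forks (1.10, adjusted p = 0.0286). *Chtf18* had 1.52 to 2.59 TPM in day 1, 3.84 to 6.84 TPM in day 5 and 2.04 to 4.36 TPM in control libraries, so its control libraries overlapped with both. *Topbp1* had 15.2 to 16.3 TPM in day 1 and 20.1 to 26.5 TPM in day 5 libraries, and 14.0 to 20.3 TPM in control. *Mcm9*, a helicase paralog that works with *Mcm8*, had the lowest day 5 log2 fold change of that list, -0.73 (SE 0.24, adjusted p = 0.104), with 13.1 to 28.5 TPM in control and 8.88 to 14.1 TPM at day 5.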
